A study of Rattus norvegicus with 9 samples.

Results

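The genes described here are 9 markers of bile duct cells and of the ductular reaction, Krt7, Krt8, Krt18, Krt19, Epcam, Sox9, Sctr, Cftr and Prom1, out of the 17156 gene names in the deposited tables. They were chosen by name with earlier results of these data known, and each of the 9 was found by its symbol. Their RNA was measured by sequencing in whole liver pieces of 9 male Sprague–Dawley rats, 3 per group. Model and TA rats had received carbon tetrachloride (CCl4), a liver toxin, by stomach tube at 2 ml/kg of a 50% oil solution 2 times a week for 9 weeks, and normal rats had received saline. TA rats were then treated with tormentic acid, a plant triterpene, for 6 weeks at 3 mg/kg, a dose that the study's design gives and the sample labels do not. All rats were fasted and anesthetized with pentobarbital before the livers were taken. The age of the rats, and what the model rats received while the TA rats were treated, are not given in the sources used here. CCl4 is activated by cytochrome P450 in hepatocytes around the central vein, so the model rests on a toxic injury of hepatocytes and not on a blocked bile duct.

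Bile ducts are lined by cholangiocytes, a simple epithelium that modifies bile. Keratins form filaments from a pair of partners: hepatocytes make only the Krt8 and Krt18 pair, while cholangiocytes make Krt7 and Krt19 as well. In chronic liver injury, small ductules that carry cholangiocyte markers multiply at the edge of the portal tract, which is called the ductular reaction. Epcam is an adhesion molecule of the duct surface, Prom1 is a membrane protein of stem and progenitor cells, and Sox9 is a transcription factor of duct identity. Sctr, the secretin receptor, and Cftr, a chloride channel, work in series in the cholangiocyte, where secretin raises cyclic AMP, the channel opens, and bicarbonate-rich fluid enters the bile.

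The promoters of 3 markers that rose in model livers, and of Krt18, which did not pass the test, are printed to show how these starts differ in their letters. Each window holds 250 bases before and 50 bases after the transcription start, from RefSeq for assembly GRCr8, and is printed 5′ to 3′ on the gene's own strand. Capitals mark matches to the motifs listed after the sequences.
Epcam (chr6:12649629-12649928, minus strand): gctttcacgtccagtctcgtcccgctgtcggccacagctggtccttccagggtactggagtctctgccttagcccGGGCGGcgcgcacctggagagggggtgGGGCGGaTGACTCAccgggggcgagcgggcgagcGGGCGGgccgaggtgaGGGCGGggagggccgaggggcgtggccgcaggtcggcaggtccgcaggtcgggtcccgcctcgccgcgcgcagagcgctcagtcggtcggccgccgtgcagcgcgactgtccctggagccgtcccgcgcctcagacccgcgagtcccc
Sctr (chr13:33680377-33680676, plus strand): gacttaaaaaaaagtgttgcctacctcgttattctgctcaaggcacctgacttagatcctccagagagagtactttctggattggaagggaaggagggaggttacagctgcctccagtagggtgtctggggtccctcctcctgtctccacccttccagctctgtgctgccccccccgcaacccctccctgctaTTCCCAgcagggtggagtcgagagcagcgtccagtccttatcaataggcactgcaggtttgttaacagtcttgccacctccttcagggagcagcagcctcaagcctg
Cftr (chr4:47527379-47527678, plus strand): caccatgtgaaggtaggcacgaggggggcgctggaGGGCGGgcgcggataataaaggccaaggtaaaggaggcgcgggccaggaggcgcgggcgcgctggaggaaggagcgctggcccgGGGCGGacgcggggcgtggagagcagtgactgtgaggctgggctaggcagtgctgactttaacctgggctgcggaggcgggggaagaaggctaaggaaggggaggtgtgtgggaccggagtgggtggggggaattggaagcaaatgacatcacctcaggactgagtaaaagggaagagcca
Krt18 (chr7:135035918-135036217, plus strand): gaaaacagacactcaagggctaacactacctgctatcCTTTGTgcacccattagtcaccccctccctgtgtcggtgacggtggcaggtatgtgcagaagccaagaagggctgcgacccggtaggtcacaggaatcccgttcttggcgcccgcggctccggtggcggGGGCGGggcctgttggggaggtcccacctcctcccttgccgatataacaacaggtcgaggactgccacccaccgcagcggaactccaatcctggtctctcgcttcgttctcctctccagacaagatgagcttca

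The motifs searched on both strands were CATTCC (TEAD factors), TGGGAA (RBPJ), ACAAAG (SOX factors), TGTTTAC (FOXA factors), TGANTCA (AP1), GGGCGG (SP1) and TATAAA (the core promoter box), and no letters were shared between different motifs of the 4 windows. The Epcam window held 4 matches of GGGCGG and 1 of TGANTCA, and the Cftr window held 2 of GGGCGG. Sctr held 1 match of TGGGAA and no other, and Krt18 held 1 each of ACAAAG and GGGCGG. Among all 33469 promoter windows, 33.1% held GGGCGG, 25.7% TGGGAA, 18.8% ACAAAG, 14.2% CATTCC, 14.2% TATAAA, 7.33% TGANTCA and 3.78% TGTTTAC. The windows also differed in base composition, with 75.7% G and C in Epcam, 65.0% in Cftr, 60.3% in Krt18 and 55.7% in Sctr, against a median of 51.7% over all windows. No motif was shared by all 4 windows. RefSeq windows of Krt8 and Prom1 were also searched, and they held TGANTCA and TATAAA in Krt8 and, in the 2 windows of Prom1, GGGCGG in one and TGTTTAC and TGANTCA in the other. Krt7, Krt19 and Sox9 were not matched in the promoter table.

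Between 13156735 and 18090405 reads were counted per liver. Model rat 1 stood apart from the other 8 rats. Its 50 most abundant genes took 27.9% of its counts, against 40.4% to 45.7% elsewhere, and its summed hepatocyte markers were the lowest of all at 39203 CPM, the counts relative to the scaled library total, against 112005 to 198199. Calls at an adjusted p under 0.05 that changed when this rat was left out are also given without it. The 12 hepatocyte markers were all present in every group, so the tissue was liver as labelled. CPM values were scaled by edgeR's TMM factors over the 9 livers. FPKM values, which the authors calculated, also account for gene length and were used to compare one gene with another. Because whole liver was sequenced, fewer cells of a type and less RNA per cell cannot be told apart.

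In normal livers, the duct markers were rare beside the keratins of hepatocytes. By FPKM, Krt18 stood at 205 ± 65.7 (SD, n = 3) and Krt8 at 131 ± 26.2, with overlapping ranges. Epcam followed at 8.01 ± 1.56, below both keratins in every liver. Krt19 (1.13 ± 0.120) and Sctr (0.850 ± 0.355) overlapped with each other and lay above the last 4 genes. Prom1 (0.170 ± 0.130), Sox9 (0.169 ± 0.106), Cftr (0.103 ± 0.0349) and Krt7 (0.0334 ± 0.0332) overlapped from each gene to the next. In model livers the first 3 places were the same, with Krt18 at 346 ± 150, Krt8 at 324 ± 123 and Epcam at 57.0 ± 22.0. Sctr (16.7 ± 6.82), Krt19 (16.2 ± 14.1) and Krt7 (10.5 ± 9.96) came next, so that Krt7 held the last place in normal livers and the sixth in model livers, above Prom1 (3.31 ± 1.72), Cftr (2.91 ± 0.934) and Sox9 (2.52 ± 1.15). From Sctr down, each gene overlapped with the next. In TA livers Krt18 (176 ± 29.9), Krt8 (148 ± 22.3) and Epcam (13.2 ± 0.518) again led, followed by Sctr (2.50 ± 0.975), Krt19 (2.22 ± 1.22), Krt7 (0.612 ± 0.756), Prom1 (0.523 ± 0.238), Sox9 (0.475 ± 0.0889) and Cftr (0.397 ± 0.261). From Sctr down each gene again overlapped with the next, and without TA rat 1 Krt7 came last at 0.180.

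**Figure D1:**
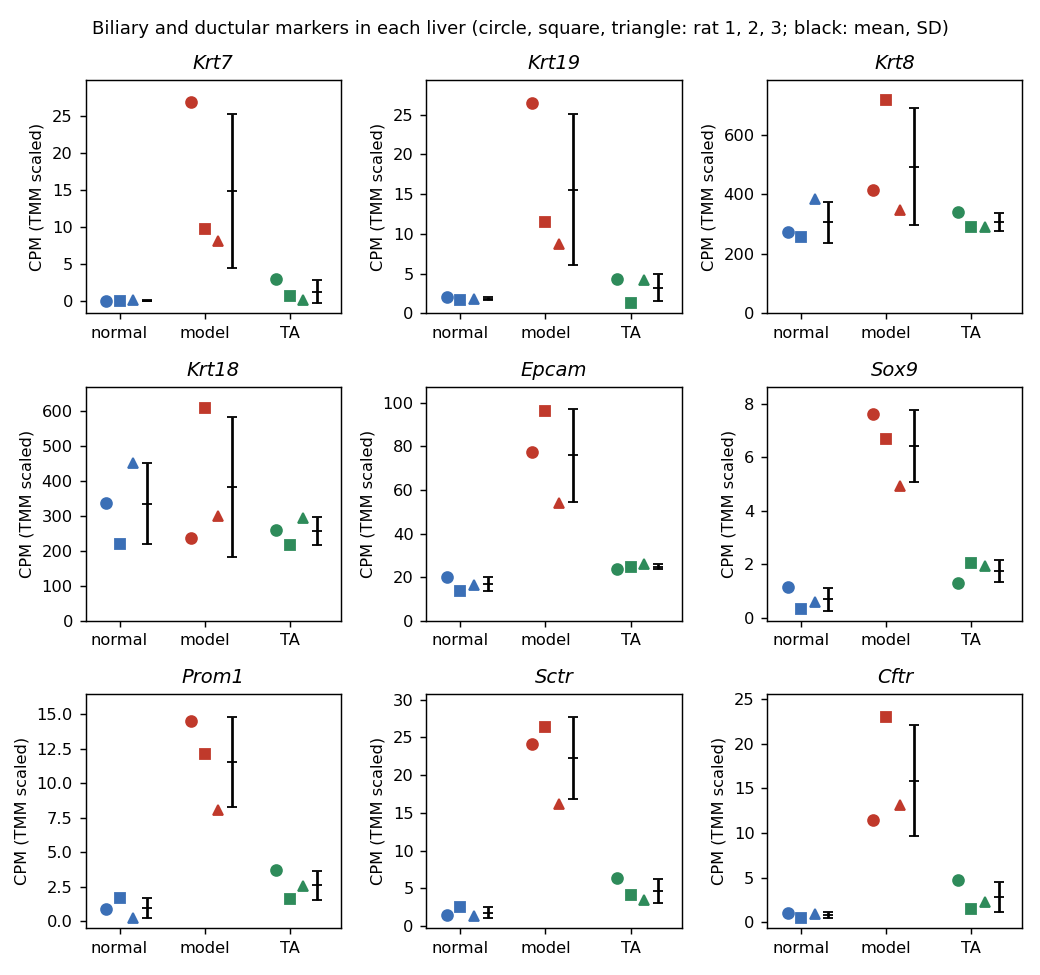
Level of each of the 9 markers in each liver, as TMM-scaled CPM (linear axis, 1 panel per gene), for the normal, model and TA groups with 3 rats each. Points are single rats and black bars are the group mean with its SD. In 7 panels every model rat lies above every normal rat, while the groups overlap for Krt8 and Krt18.

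The first comparison, Model VS Normal, asks what the CCl4 course changed. Of the 9 markers, 7 rose in model livers with edgeR's quasi-likelihood test at an adjusted p-value (Benjamini-Hochberg over 12730 genes) under 0.05, and none fell. Over all genes tested, 7.87% passed this threshold and 6.86% passed it with a higher level in model livers. The same 7 markers were differentially expressed genes (DEGs) by the study's rule, which asks for p under 0.05 before adjustment and for a change of more than 1 on the log2 scale, against 22.1% of all genes, of which 16.6% were higher. In these 7 markers no model rat overlapped a normal rat, which was so for 38.2% of all genes, 20.9% with the model rats higher. Of the 7, Krt7, Sox9, Prom1 and Cftr had too few counts in normal livers to pass the filter on low counts there. Their entry into the test thus depended on their high model counts. With no such filter the same 7 had an adjusted p under 0.05 with edgeR. The median log2 fold change of the 9 markers was 3.23, and that of all genes was 0.02. The markers that rose were Krt7, Krt19, Epcam, Prom1, Sox9, Sctr and Cftr, and the pair that did not pass the test was Krt8 and Krt18, the keratins that hepatocytes share.

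Krt7, a keratin of the mature duct, was counted 1, 0 and 2 times in the normal rats, and 599, 148 and 115 times in the model rats. It was at the edge of detection in normal livers and clearly present in each model liver. The model livers together held 862 counts against 3, a ratio of 220 after scaling, with an exact 95% interval of 74.9 to 1067 that covers counting error only. Without model rat 1 the ratio was 118 (39.9 to 576). The fitted log2 fold change was 7.46 ± 0.87 (SE, adjusted p = 0.00925 with edgeR), and its size depends on how the few normal counts are treated. Krt19, the keratin most used to stain bile ducts, stood at 2.08, 1.67 and 1.85 CPM in normal rats and at 26.5, 11.5 and 8.77 CPM in model rats. The normal livers were close to each other, and the spread lay in the model group. The log2 fold change was 3.07 ± 0.48 (adjusted p = 0.0153 with edgeR), an 8.39-fold rise, and 2.43 without model rat 1.

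Krt8 stood at 274, 257 and 385 CPM in normal rats and at 415, 716 and 347 CPM in model rats. The groups overlapped, since model rat 3 lay below normal rat 3. The log2 difference of 0.69 ± 0.40 did not pass the test (adjusted p = 0.290 with edgeR). With limma voom and sample weights it was 1.10 and passed (adjusted p = 0.0257), and with library totals it was 1.31 (adjusted p = 0.0593 with edgeR). Krt18, the partner of Krt8, stood at 337, 219.5 and 451 CPM in normal rats and at 237, 611 and 300.1 CPM in model rats. Model rat 2 was the highest of all, and the other 2 model rats lay within the normal range. The log2 difference was 0.19 ± 0.47 (adjusted p = 0.813 with edgeR), and it turned to -0.05 without normal rat 2 and to -0.32 without model rat 2. Krt8 and Krt18 are neighbours in the RefSeq annotation, with 0 protein-coding genes between them, and 26 lie between Krt7 and Krt8. Keratins form a multigene family, and how reads that map to several places were counted is not given in the sources used here.

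Epcam, the adhesion molecule of the duct surface, stood at 20.2, 13.7 and 16.2 CPM in normal rats and at 77.4, 96.3 and 53.9 CPM in model rats. It was the most abundant of the 7 markers that rose, and the lowest model rat lay above the highest normal rat. The log2 fold change was 2.19 ± 0.29 (adjusted p = 0.0117 with edgeR), 4.56-fold, the smallest of the 7. Prom1, the membrane protein of progenitor cells, stood at 0.913, 1.67 and 0.252 CPM in normal rats and at 14.5, 12.1 and 8.06 CPM in model rats, a log2 fold change of 3.58 ± 0.60 (adjusted p = 0.0182 with edgeR). Its normal values rest on 11, 26 and 3 counts. Sox9, the transcription factor, stood at 1.16, 0.322 and 0.587 CPM in normal rats, from 14, 5 and 7 counts, and at 7.61, 6.71 and 4.95 CPM in model rats. The model rats lay close together, and the log2 fold change was 3.23 ± 0.53 (adjusted p = 0.0176 with edgeR).

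The chloride channel and the secretin receptor had the largest log2 fold changes after Krt7, with Prom1 close to Sctr. Sctr stood at 1.49, 2.57 and 1.26 CPM in normal rats and at 24.2, 26.4 and 16.1 CPM in model rats, a log2 fold change of 3.63 ± 0.38 (12.4-fold, adjusted p = 0.00871 with edgeR). Cftr stood at 1.08, 0.515 and 0.923 CPM in normal rats and at 11.5, 22.9 and 13.1 CPM in model rats, a log2 fold change of 4.25 ± 0.45 (19.0-fold, adjusted p = 0.00871 with edgeR). The ratio of Cftr to Sctr within a liver differed by 0.55 on the log2 scale between the groups, which overlapped (exact permutation p = 0.5, two-sided). An exact permutation test on the CPM of each of the 7 markers gave p = 0.1, the smallest that 3 against 3 can give.

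**Figure D2:**
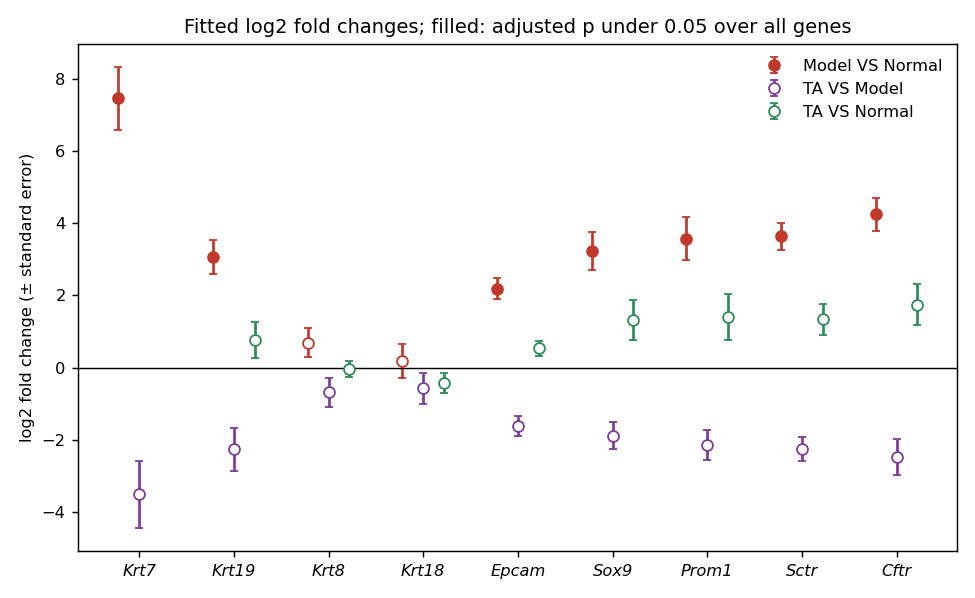
Fitted log2 fold change of each marker (points) with its standard error (bars) in Model VS Normal, TA VS Model and TA VS Normal. Filled points have an adjusted p under 0.05 over all genes, which is so for 7 markers in Model VS Normal and for none in the other comparisons, and Krt7 has no point in TA VS Normal because it was not tested there.

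The adjusted p-values depended on the normal group. Without normal rat 1, 2 markers (Sctr and Cftr) and 51 genes kept an adjusted p under 0.05. Without normal rat 2 or normal rat 3, 0 markers and 0 genes did with edgeR, where the lowest adjusted p of a marker was 0.0690 and 0.0699 and 2727 and 3119 genes had an unadjusted p under 0.05. Leaving out any of the model rats kept all 7. The same 7 markers were DEGs by the study's rule in every setting tried, with Krt8 added in the fits by limma voom and with library totals.

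TA VS Model asks how livers of treated rats compared with those of untreated model rats. No marker and no gene of 12781 had an adjusted p under 0.05 with edgeR, while 1999 genes (15.6%) had an unadjusted p under 0.05. By the study's rule on unadjusted p-values, 7 of the 9 markers were DEGs, all with lower levels in TA livers, against 12.3% of all genes and 10.2% in this direction. They were Krt7, Krt19, Epcam, Prom1, Sox9, Sctr and Cftr, and they were DEGs with each rat left out in turn. In 8 markers, these 7 and Krt8, no TA rat overlapped a model rat, which was so for 23.1% of all genes and for 12.6% in this direction. The median log2 difference of the 9 markers was -2.14, against -0.00 for all genes. Other tools called more. DESeq2, which the study used, gave an adjusted p under 0.05 for 541 genes and for these 7 markers. Limma voom with sample weights did so for 169 genes and for Epcam, Sox9, Sctr, Cftr and Prom1. Both comparisons share the model rats, so the values of each are given side by side and are not independent.

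Krt7 was counted 43, 8 and 2 times in the TA rats. TA rat 1 held most of these counts, and every TA rat lay below every model rat. The scaled ratio of model to TA livers was 12.4, with a counting interval of 9.36 to 16.6. The fitted log2 difference was -3.50 ± 0.93 (adjusted p = 0.249 with edgeR), -2.75 without model rat 1 and -5.17 without TA rat 1. Krt19 stood at 4.27, 1.27 and 4.18 CPM in TA rats. Its log2 difference was -2.26 ± 0.59 (adjusted p = 0.246 with edgeR) and -1.62 without model rat 1. Within a liver, the ratio of Krt7 to Krt19 was lower in every TA rat than in every model rat, with a log2 difference of -1.95 between the means (exact permutation p = 0.1, two-sided, 0.217 after adjustment over 26 tests of ratios). This size rested on TA rat 3, which had 2 counts of Krt7, and the difference was -0.58 without it.

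Epcam stood at 23.6, 24.7 and 26.1 CPM in TA rats, a narrow range under the lowest model rat. Its log2 difference from the model group was -1.61 ± 0.27 (unadjusted p = 0.000381, adjusted p = 0.230 with edgeR). Sctr stood at 6.41, 4.14 and 3.43 CPM in TA rats. It had the smallest unadjusted p of the markers and the tenth smallest of all genes, with a log2 difference of -2.25 ± 0.34 (unadjusted p = 0.000193, adjusted p = 0.230 with edgeR). Cftr, which acts after Sctr in secretion, stood at 4.77, 1.52 and 2.24 CPM, a log2 difference of -2.46 ± 0.50 (adjusted p = 0.230 with edgeR). Prom1 stood at 3.70, 1.61 and 2.54 CPM, a log2 difference of -2.14 ± 0.41 (adjusted p = 0.230 with edgeR). Sox9 stood at 1.28, 2.03 and 1.94 CPM, from 18, 24 and 26 counts, a log2 difference of -1.88 ± 0.38 (adjusted p = 0.230 with edgeR). In all 4 genes the highest TA rat lay below the lowest model rat. The keratins of hepatocytes differed least. Krt8 stood at 339.8, 289 and 290.3 CPM in TA rats, just below the lowest model rat, with a log2 difference of -0.68 ± 0.40 (adjusted p = 0.415 with edgeR). Krt18 stood at 259, 216 and 295 CPM and overlapped with the model group, with a log2 difference of -0.57 ± 0.44 (adjusted p = 0.518 with edgeR).

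TA VS Normal asks how far treated livers were from normal ones. Of the 8 markers tested, 0 had an adjusted p under 0.05 with edgeR, against 32 of 12179 genes (0.263%), and 4 had an unadjusted p under 0.05, against 9.43% of genes. By the study's rule, 3 markers were DEGs with higher levels in TA livers, Sox9, Sctr and Cftr, against 5.25% of genes and 4.24% in this direction. In 4 markers, these and Epcam, every TA rat lay above every normal rat, against 15.1% of genes and 8.26% in this direction. DESeq2 called 360 genes and limma voom 126, and neither called a marker at an adjusted p under 0.05. The median log2 difference of the 8 markers was 1.05, and that of all genes -0.01. With the replicate number as a block, Sctr and Cftr were DEGs and Sox9 was not, 0 markers had an adjusted p under 0.05, and the count of genes that did was 203. Without TA rat 1, 0 markers were DEGs, and 3 genes had an adjusted p under 0.05 with edgeR, 721 having an unadjusted p under 0.05.

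The largest log2 difference was that of Cftr, 1.74 ± 0.56 (unadjusted p = 0.0139, adjusted p = 0.325 with edgeR). Prom1 followed at 1.40 ± 0.64 (adjusted p = 0.553), Sctr at 1.35 ± 0.43 (unadjusted p = 0.0131, adjusted p = 0.319) and Sox9 at 1.32 ± 0.56 (unadjusted p = 0.0459, adjusted p = 0.510). Prom1 overlapped between the groups because normal rat 2 lay above TA rat 2. Krt19 differed by 0.77 ± 0.50 (adjusted p = 0.750), with TA rat 2 below every normal rat and the other 2 TA rats above. Epcam differed by 0.54 ± 0.21 (unadjusted p = 0.0311, adjusted p = 0.445), and its groups did not overlap. Krt7 did not pass the filter on low counts. It held 53 counts in TA livers against 3 in normal livers, a scaled ratio of 17.8 (5.76 to 88.9), and 5.22 (1.34 to 29.5) without TA rat 1. Krt8 (-0.02 ± 0.22, adjusted p = 0.993) and Krt18 (-0.42 ± 0.28, adjusted p = 0.764) lay closest to the normal group or below it, and the sign of Krt8 was positive with library totals, with upper quartile scaling, with limma voom and with all 9 livers in 1 fit. Krt18 was lower in the TA rat of each same-numbered pair, with a log2 difference of -0.37 in the fit with the block (adjusted p = 0.304 with edgeR).

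**Figure D3:**
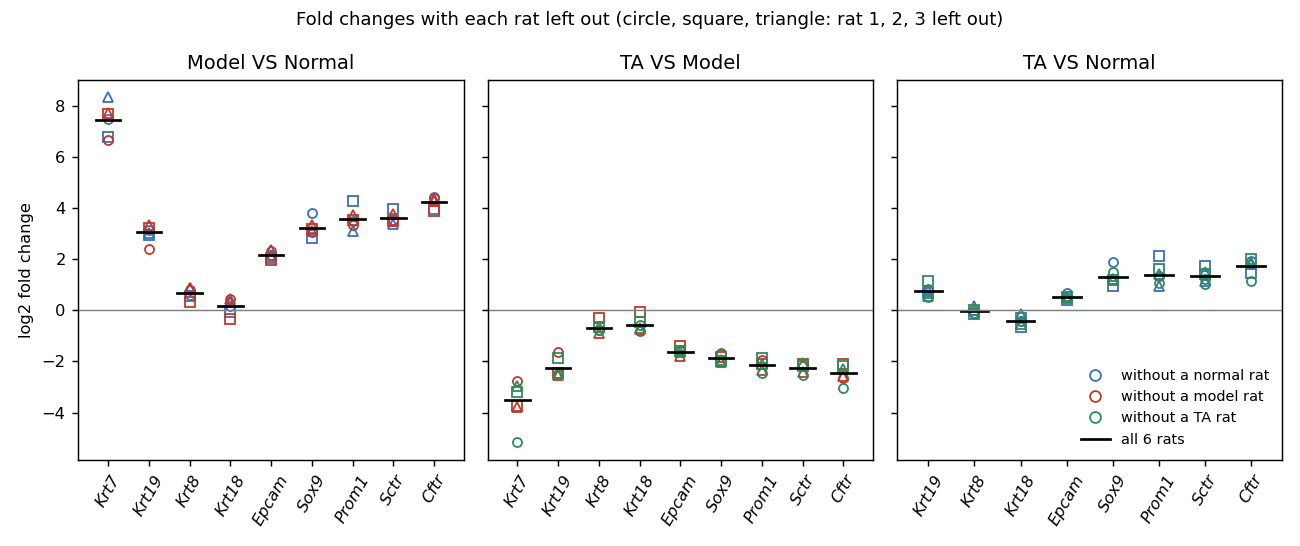
Log2 fold change of each marker with all 6 rats of a comparison (black lines) and with each rat left out in turn (open symbols, coloured by the group of the rat left out). Krt7 moves most, from -5.17 to -2.75 in TA VS Model, while the 7 markers other than Krt8 and Krt18 stay above 0 in Model VS Normal and below 0 in TA VS Model.

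Since cholangiocytes and hepatocytes differ in their keratin pairs, the sum of Krt7 and Krt19 was also set against the sum of Krt8 and Krt18 within each liver, by FPKM. This ratio does not depend on library scaling. It was 0.399%, 0.414% and 0.269% in normal rats, 8.32%, 1.60% and 2.59% in model rats, and 1.26%, 0.407% and 0.849% in TA rats. Every model rat lay above every other rat, model rat 1 was far above the rest, and TA rat 2 lay within the normal range. On the log2 scale the model group was higher than the normal group by 3.20, and the TA group differed from the model group by -2.10 (each exact permutation p = 0.1, two-sided, 0.217 after Benjamini-Hochberg adjustment over 26 tests of ratios). The TA group was 1.10 above the normal group, with overlap (exact permutation p = 0.2, adjusted 0.325). Without model rat 1 the first 2 differences were 2.52 and -1.43. The overlap of TA and normal rats depended on the measure. From summed raw counts the TA group was 1.18 above the normal group without overlap (exact permutation p = 0.1, adjusted 0.217). There TA rat 2 stood at 0.385%, and the normal rats at 0.353%, 0.351% and 0.241%.

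The ratio within the pair that hepatocytes share moved less. Krt8 stood at 57.2%, 82.1% and 59.8% of Krt18 in normal rats, 123%, 82.3% and 81.1% in model rats, and 92.1%, 93.9% and 69.1% in TA rats. The 3 groups overlapped, with log2 differences of 0.52 in Model VS Normal, -0.15 in TA VS Model and 0.36 in TA VS Normal (exact permutation p = 0.2, 0.6 and 0.2, two-sided, adjusted 0.325, 0.743 and 0.325). Between same-numbered TA and normal rats the ratio was higher in the TA rat in each of the 3 pairs, by 0.69, 0.19 and 0.21 on the log2 scale (exact sign-flip p = 0.25, the smallest that 3 pairs can give). Epcam relative to Krt18 separated all 3 groups, with log2 differences of 2.04, -1.11 and 0.93 in the same order (each exact permutation p = 0.1, adjusted 0.217). The ratios of Krt19 to Epcam and of Prom1 to Sox9 overlapped between groups in every comparison.

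**Figure D4:**
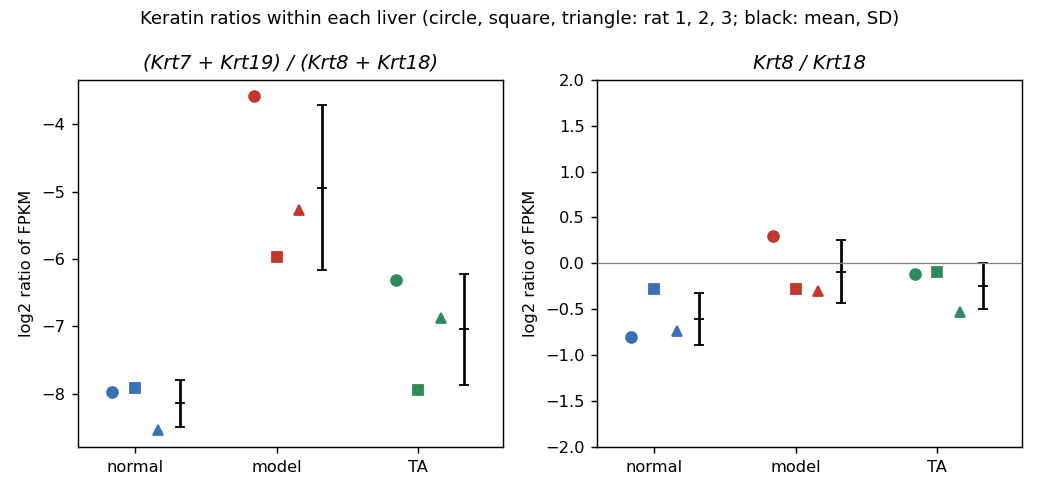
Log2 ratio of FPKM within each liver, on the left of Krt7 plus Krt19 to Krt8 plus Krt18 and on the right of Krt8 to Krt18, with single rats as points and the group mean with its SD as black bars. On the left the model rats lie between -5.96 and -3.59 and the normal rats between -8.54 and -7.92, while on the right the 3 groups overlap.

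The markers did not follow one profile over the 9 livers. The root mean square difference of a marker from the mean of the 8 markers tested in every comparison, in centred log2 CPM, was smallest for Epcam (0.226) and largest for Krt18 (1.05). In CPM, Krt7 and Krt19 were highest in model rat 1, as were Sox9 and Prom1, whereas Krt8, Krt18, Epcam, Sctr and Cftr were highest in model rat 2. By raw counts Epcam and Sctr were also highest in model rat 1. Among 12041 genes, those closest to the mean of the markers by the same measure were Plxna3 (0.208), a semaphorin receptor subunit, Bex3 (0.258), Spint1 (0.258), a protease inhibitor of epithelia, Cd24 (0.263), a surface protein of progenitor and duct cells, and Cryab (0.280), a small heat shock protein. The median over all genes was 1.15. Plxna3 was counted 14, 13 and 14 times in normal rats, 161, 149 and 79 times in model rats and 28, 25 and 32 times in TA rats. Closest to Krt19 alone were Serpinb1a (0.306), Slc25a4 (0.325) and Nbl1 (0.328), and closest to Epcam alone were Lrrc75b (0.205), Sgcb (0.222) and Plxna3 (0.232). These values describe likeness over 9 livers in 3 groups.

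Other genes of the duct were read from 4 lists, which were also chosen with earlier results of these data known. Over all genes, 6.86% rose in Model VS Normal at an adjusted p under 0.05 with edgeR. In TA VS Model 10.2% of all genes were DEGs with lower levels. The first list held 20 other genes of the duct epithelium, mostly of adhesion, junctions and the surface. It also held the keratins Krt20 and Krt23 and the secreted proteins Spp1, Lcn2 and Mmp7. Of the 20, 18 were tested, and 11 rose and 0 fell in Model VS Normal at an adjusted p under 0.05 with edgeR, with a median log2 fold change of 3.00. Without model rat 1, 12 rose and 0 fell. Cldn4, a tight junction claudin, was counted 3, 3 and 8 times in normal rats, 446, 187 and 147 times in model rats and 34, 12 and 26 times in TA rats, a log2 fold change of 5.27 ± 0.55 (adjusted p = 0.00871 with edgeR). Cd9, a tetraspanin, rose by 3.87 ± 0.53 on the log2 scale. In TA VS Model none of the 18 had an adjusted p under 0.05, and 11 were DEGs with lower levels (median -1.84). The epithelial list thus had a median near that of the 9 markers in both comparisons, while the other 3 lists had medians closer to 0.

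Of 15 other channels, transporters, receptors and cilium genes of cholangiocytes, 12 were tested, and 4 rose and 1 fell in Model VS Normal (median 1.23). Aqp1, the water channel, rose by 2.58 ± 0.39 (adjusted p = 0.0139 with edgeR), Slc5a1, a glucose carrier, by 2.34 ± 0.54, and Ggt1, a surface peptidase, by 2.30 ± 0.38 on the log2 scale. Aqp1 was counted 94, 232 and 135 times in normal rats, 2158, 985 and 587 times in model rats and 755, 369 and 711 times in TA rats. Unlike Sctr and Cftr, Aqp1 overlapped between TA and model livers, where it differed by -0.56 ± 0.37 (adjusted p = 0.463 with edgeR). The gene that fell, named after its values were seen, was P2ry2, a receptor for ATP (-1.36 ± 0.31, adjusted p = 0.0415 with edgeR), which hepatocytes also express. It did not pass without model rat 1 (-1.22, adjusted p = 0.0630 with edgeR). In TA VS Model, 2 of the 12 were DEGs, both lower, against 10.2% of all genes in this direction.

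Of 16 other transcription factors of the duct and progenitor programme, 15 were tested and 3 rose, with a median of 0.50. They were Klf5 (3.39 ± 0.84) and Ehf (3.34 ± 0.50), factors of epithelia, and Tcf21 (3.00 ± 0.40), a mesenchymal factor also found in stellate cells. Without model rat 1, 2 factors passed, and Klf5 did not (2.92, adjusted p = 0.0799 with edgeR). Yap1, the growth regulator of the Hippo pathway, differed by -0.32 (adjusted p = 0.630 with edgeR) and did not pass the test, whereas Sox9 did. Of 18 ligands and receptors that act on ductular cells, 15 were tested and 5 rose, with a median of 1.28. Among them were Itgb6 (3.97 ± 0.43) and Itgb8 (2.70 ± 0.63), integrin subunits that activate TGF-β, and Tgfb2 (2.93 ± 0.52), one of its isoforms. Without model rat 1, 4 passed, and Itgb8 did not (2.61, adjusted p = 0.0712 with edgeR). In TA VS Model 0 genes of either list had an adjusted p under 0.05 with edgeR. There 3 factors and 6 ligands or receptors were DEGs with lower levels and 2 factors with higher levels. Over all genes, 12.3% were DEGs in this comparison and 10.2% were DEGs with lower levels.

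**Figure D5:**
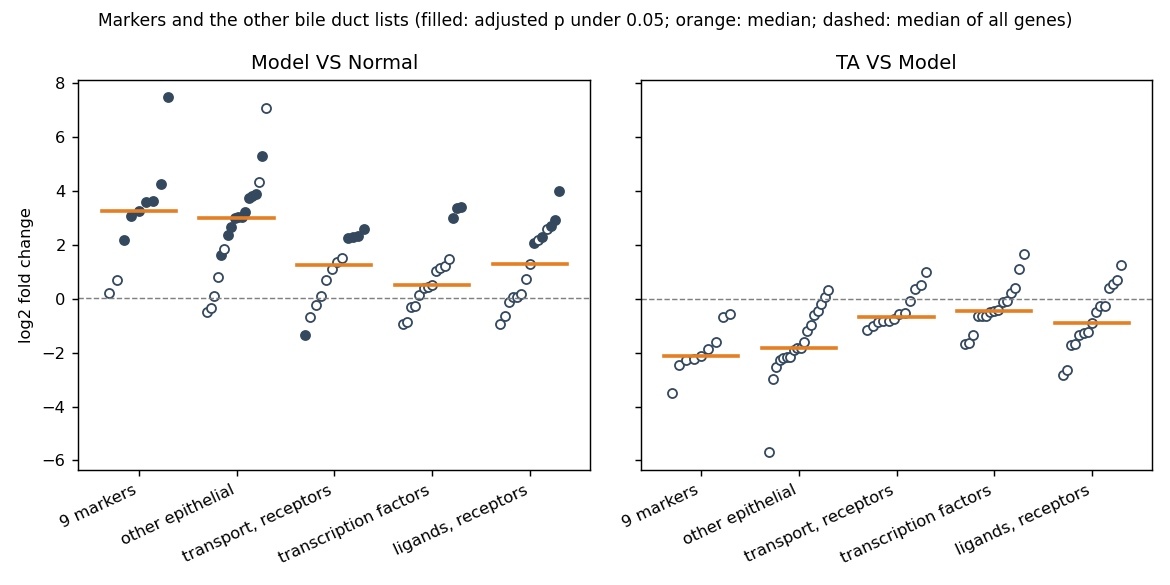
Log2 fold change of each tested gene of the 9 markers and of the 4 other bile duct lists in Model VS Normal (left) and TA VS Model (right). Points are genes, filled where the adjusted p is under 0.05, orange lines are list medians and the dashed line is the median of all genes. The markers and the epithelial genes have medians of 3.23 and 3.00 on the left and of -2.14 and -1.84 on the right.

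Markers of mesothelial and stellate cells moved with the duct markers, with median log2 fold changes of 3.62 and 2.87 in Model VS Normal. The median of hepatocyte markers went the other way (-0.84). Mesothelial cells of the liver surface also make Krt7, Krt8, Krt18 and Krt19. The summed CPM of 9 mesothelium markers was 1.09 to 13.2 in normal, 38.5 to 102 in model and 15.8 to 26.6 in TA livers. Of the 4 tested in Model VS Normal 3 rose, against 6.86% of all genes, or 2 without model rat 1. These 3, Msln, Wt1 and Rspo1, had too few counts in normal rats to pass the filter on low counts there. They were tested because of their model counts, so this count and the median of the list depend on the filter. Msln, the defining marker, was counted 24, 22 and 5 times in normal rats, 678, 1199 and 296 times in model rats and 130, 29 and 53 times in TA rats. Upk1b, Lrrn4 and Bnc1 were at 0 in all normal rats, and Bnc1 was at 0 in all TA rats. The mesothelial sum was highest in model rat 2, as were Msln and Gpm6a (111, 231 and 140 counts in model rats). Wt1 (212, 37 and 49 counts) and Rspo1 (173, 31 and 38 counts) were highest in model rat 1, as were Krt7 and Krt19. The part of mesothelial cells in the results was not tested. The summed markers of stellate cells, the matrix-producing cells of the liver, were 233 to 329 CPM in normal, 1227 to 12461 in model and 707 to 1203 in TA livers, with 6 of 10 tested genes up in Model VS Normal. The highest value was that of model rat 1.

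The sum of 12 hepatocyte markers, to which the markers above are relative in whole liver RNA, was 141330 to 179281 CPM in normal, 39203 to 124812 in model and 121223 to 198199 in TA livers, and 0 of them passed the test in any comparison with edgeR. Its lowest value was that of model rat 1, and its part in the results was not tested. Without this rat the 7 markers still had an adjusted p under 0.05 in Model VS Normal. The sums of 7 endothelial markers (172 to 207, 163 to 362 and 186 to 260.2 CPM in normal, model and TA livers) and of 7 macrophage markers (329 to 407, 217 to 697 and 313 to 656 CPM) overlapped between groups. In Model VS Normal 0 macrophage markers had an adjusted p under 0.05 with edgeR. Without model rat 1, 2 macrophage markers fell and 0 rose at this threshold. The sum of 6 pancreatic markers was 2.94 to 4.23 CPM in normal, 1.18 to 2.82 in model and 1.18 to 4.40 in TA livers. Of 8 markers of intestinal epithelium, the sums were 5.54 to 47.3, 17.7 to 37.9 and 15.5 to 17.9 CPM, with Lgals4 at 0 in normal and Cdx2 at 0 in model rats. Of the 4 tested in Model VS Normal 1 rose, against 6.86% of all genes. It was Vil1, a protein of the brush border that duct cells also make, named after its values were seen. It was counted 1, 0 and 5 times in normal rats, 125, 51 and 21 times in model rats and 8, 0 and 2 times in TA rats. Its log2 fold change was 4.41 ± 0.99 (adjusted p = 0.0398 with edgeR), and it did not pass without model rat 1 (3.87, adjusted p = 0.0553 with edgeR). In TA VS Model it differed by -3.78 ± 0.96 (adjusted p = 0.246 with edgeR). The part of these lists in the results was not tested.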

How the data were processed

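Liver RNA was sequenced from 9 rats, 3 per group, from poly(A)-selected paired-end libraries. After trimming, the authors aligned the reads using STAR, and HTSeq-count gave the reads per gene. The study's methods name the genome hg19 and the submitters' processing notes mm9, while the gene names are rat symbols, and 15601 of 17156 names (90.9%) matched RefSeq for GRCr8, which was used here for names, neighbours and promoters. The strand setting, the treatment of reads that map to several places and tool versions are not given in the sources used here. The authors deposited raw read counts, which were tested here, and FPKM values, which were used to compare genes. The authors' 12 columns of normalized values and 6 columns of their own fold changes and p-values were not used.

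Of the 2 tables, that of the normal and model groups lists 16938 genes and that of the TA and model groups 16948. Model counts were equal in both for all 16730 shared genes, on which TA VS Normal was tested. Counts were tested with edgeR 4.0.16 in R 4.3.3 (TMM scaling, filter on low counts, quasi-likelihood F test, libraries of the 2 groups compared), with Benjamini-Hochberg adjustment over all genes tested. A gene passed the filter with enough counts in as many libraries as 1 group holds, so genes low in 1 group could pass through the other. Krt7, Krt17, Dlk1 and Vil1 passed in this way in Model VS Normal, as did other genes with few normal counts. DEGs followed the study's rule, an unadjusted p under 0.05 and an absolute log2 fold change above 1. These thresholds were applied here to edgeR's test, while the study used DESeq2. Standard errors are the log2 fold change over the square root of F. The test was checked on simulated data. Total counts of 13156735 to 18090405 per liver set the precision of low genes, and intervals cover counting error only.

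Every marker is named. Of other lists, up to 3 genes are named, chosen by the size of the Model VS Normal fold change where the adjusted p was under 0.05 and mean log2 CPM not below 0, and likeness was ranked over genes tested in all comparisons, in log2 CPM with a prior count of 2. A gene that this rule would name is not reported here. The markers and lists were chosen with earlier results of these data known. Groups come from the sample labels, and so do the replicate numbers, which belong to different rats. Rats with the same number deviated from their groups with correlations of 0.258, 0.426 and 0.501 in TA VS Normal. In the other comparisons the correlations were -0.0567 to 0.218. The main tests did not pair the rats in any comparison, and pairing entered only in the alternatives. The alternatives were DESeq2 1.42.0, limma voom (limma 3.58.1), other scalings and filters, 1 fit of all livers, the replicate block and leaving out each rat. Added after seeing the data were library totals without model rat 1, other ratios, their pairing and single left-out rats, lists without model rat 1 and the counting interval of Krt7.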

Additional observations from a re-analysis of the deposited data

How the results depend on the processing

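Direction and side of the threshold held for the log2 fold changes of single markers in 131 of 153 values in Model VS Normal, 141 of 153 in TA VS Model and 121 of 128 in TA VS Normal. The exceptions in sign were Krt18 in Model VS Normal (-0.05 without normal rat 2, -0.32 without model rat 2, up to 0.43 with another rat left out) and Krt8 in TA VS Normal, which was 0.14 with limma voom, 0.17 with library totals, 0.038 with upper quartile scaling, 0.0053 with all 9 livers in 1 fit, 0.17 without normal rat 3, 0.013 without TA rat 2, 0.017 without TA rat 3 and as low as -0.13 with another rat left out. Library totals moved the median of all genes to 0.65 in Model VS Normal, -0.48 in TA VS Model and 0.18 in TA VS Normal.

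In Model VS Normal, the 1002 genes with an adjusted p under 0.05 became 2654 with DESeq2, 3433 with limma voom, 1980 with library totals, 1757 with all livers in 1 fit, 1723 without model rat 1 and with library totals (added after seeing the data), and 0 to 2537 with each rat left out. The markers among them were 0 to 7 with each rat left out. In TA VS Model, genes with an adjusted p under 0.05 were 541 with DESeq2, 169 with limma voom and 0 to 1 with each rat left out, and markers were 7 and 5. DEGs there were 2447 with library totals and 792 to 2792 with each rat left out. In TA VS Normal, the 32 genes became 360 with DESeq2, 126 with limma voom, 56 with library totals, 76 without a filter, 14 with all livers in 1 fit and 1 to 61 with each rat left out. The 3 markers that were DEGs became 5 with all livers in 1 fit and 0 to 3 with each rat left out. The causes were not tested.

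With a block for the replicate number, genes with an adjusted p under 0.05 in TA VS Normal were 203, and the 7 markers in Model VS Normal were again called. Depth limits Krt7, with 3 counts in normal livers, most of all markers.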

Other observations

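Genes of hepatic progenitor or oval cells moved in model livers too. Of 12 listed, 9 were tested in Model VS Normal, and 6 rose and 0 fell at an adjusted p under 0.05 with edgeR, with a median log2 fold change of 3.02. Over all genes 6.86% rose at this threshold. Of the 6, Cd24 and Ggt1 are also counted in the duct lists above. Dlk1, a fetal liver surface protein, was counted 1, 1 and 0 times in normal rats, 87, 205 and 55 times in model rats and 2, 2 and 1 times in TA rats. Gpc3, a glypican of fetal liver, was counted 13, 15 and 9 times in normal rats, 235, 223 and 218 times in model rats and 190, 73 and 108 times in TA rats. It rose in Model VS Normal (3.85 ± 0.35, adjusted p = 0.00742 with edgeR) and in TA VS Normal (3.27 ± 0.41, adjusted p = 0.0220 with edgeR), where none of the 8 duct markers tested passed. Thy1, which fibroblasts also make, rose by 6.19 ± 1.10 in Model VS Normal (72.9-fold, and 33.5-fold without model rat 1). Afp, the fetal albumin relative named here after its values were seen, was counted 203 to 229 times in normal, 191 to 340 times in model and 244 to 290 times in TA livers. In TA VS Model 0 of the 10 genes tested had an adjusted p under 0.05 with edgeR. DEGs with lower levels were 5 of them, against 10.2% of all genes.

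Of 15 other keratin genes in the tables, 7 were tested in Model VS Normal and 2 rose, against 6.86% of all genes. Of these 2, Krt20 is also counted in the list of epithelial genes above. Krt17, a keratin of basal and stressed epithelia, was at 0 in the normal rats and was counted 25, 42 and 44 times in model rats and 9, 2 and 0 times in TA rats. Krt20, a keratin of gut and urinary epithelia, was counted 15, 17 and 17 times in normal rats, 135, 218 and 45 times in model rats and 63, 16 and 129 times in TA rats, a log2 fold change of 2.65 ± 0.59 (adjusted p = 0.0394 with edgeR). Unlike Krt7 and Krt19, it overlapped between TA and model livers. Krt5, Krt13 and Krt73 were at 0 in normal and TA rats.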
